A study of Mus musculus with 14 samples.

Results

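Trop2-positive luminal cells sorted from the prostates of old mice (24 months) were compared with the same sort from young mice (3 months), across all genes. The members are the 4 libraries that the sample titles place in these groups, 2 per age, of 14 libraries in the series. The other libraries hold Trop2-negative luminal cells (2 per age) and stromal cells (3 per age). All mice carried the C57BL/6 background, no treatment or engineered allele is named for any group, and the series describes the luminal libraries as biological duplicates. How many animals went into a library, and the hour and prostate lobe at collection, are not given in the sources used here. The p-values therefore measure the spread between libraries.

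The luminal cells of the prostate line the ducts and make its secretions under the control of androgen. The luminal cells sorted as Trop2-positive lie mainly in the proximal ducts near the urethra and form organoids readily. In a bulk sort a transcript can be lower because fewer cells make it or because each cell holds less of it, and these data cannot tell the alternatives apart.

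The 4 libraries held between 6099426 and 7238467 expected counts, RSEM's estimate of reads per gene, and between 14192 and 16108 genes above 0. Levels below are CPM, counts scaled to a common library total after TMM normalisation, given as library 1 and then library 2 of each age. Krt4, a keratin of the proximal ducts, stood at 475 and 303 CPM in young and 458 and 338 CPM in old Trop2-positive cells, against at most 7.51 CPM in the Trop2-negative libraries. The luminal keratin Krt8 stood at 6177 and 4918 CPM in young and 5832 and 5096 CPM in old cells. The 8 basal epithelium markers summed to 1422 and 1143 CPM in young and 1262 and 1126 CPM in old libraries. The 9 macrophage and dendritic markers summed to 21.2 and 27.4 CPM in young and 11.2 and 12.7 CPM in old libraries. The part of basal cells and macrophages in the sorted cells was not tested. Markers of lymphocytes and neutrophils were at low levels. The summed level of 8 T and NK cell markers was 17.4 and 7.59 CPM in young and 13.2 and 10.5 CPM in old libraries, most of it Cd3d, while Cd3e was at 0 in all 4. The 6 neutrophil markers summed to 37.2 and 21.4 CPM in young and 36.6 and 44.8 CPM in old libraries, most of it Cxcr2, while S100a9 was at 0 in all 4. The 6 B and plasma cell markers summed to 2.56 and 0.825 CPM in young and 1.06 and 3.63 CPM in old libraries, with Ms4a1 at 0 in all 4. A count of 0 allows up to 0.492 CPM in the shallowest library (3 counts, counting error only). Svs1, which the seminal vesicle secretes, was measured at 0.142 and 0 CPM in young and 0 and 169 CPM in old libraries, and old library 2 was 1 of 3 luminal libraries with more than 50 CPM of the total of it.

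At an adjusted p under 0.05 in edgeR's quasi-likelihood test, 22 of 13598 genes differed with age, 0.162% of those tested. Of these, 13 rose (0.0956%) and 9 fell (0.0662%), and 20 changed over 2-fold. Without the adjustment, 1327 genes (9.76%) had p under 0.05. Of these, 691 genes (5.08%) were higher and 636 (4.68%) lower. The median change of all genes was 0.01 on the log2 scale. The number of calls moved with single libraries. It was 28 (26 of them higher) without old library 1, 10 (7 of them lower) without old library 2, 42 without young library 1 and 241 without young library 2. Eif3j2, Cyp4a12a, Fn1, Trpv6 and Crabp1 were the 5 genes of the 22 that stayed called without old library 2. Without old library 1, 11 stayed called, and those lost included Rbm3, Myo5c, Fam115e, Pgm2l1, Tef, Trpv6, Akap12, 5430419D17Rik, Crabp1 and Sp100. Without young library 1, 14 stayed called, and Ldhb, Frem1, Trpv6, Nhs, Akap12, 5430419D17Rik, Asap1 and Sp100 were lost. All 22 stayed called without young library 2. Eif3j2 and Cyp4a12a were called under each of 12 alternatives, and the 22 genes kept their direction in all of them. For the named genes, whose libraries did not overlap by age, leaving out 1 library could hardly reverse a direction. On the log2(TPM + 1) scale in limma, 24 genes were called, 19 higher and 5 lower, with 11 of the 22 among them.

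**Figure D1:**
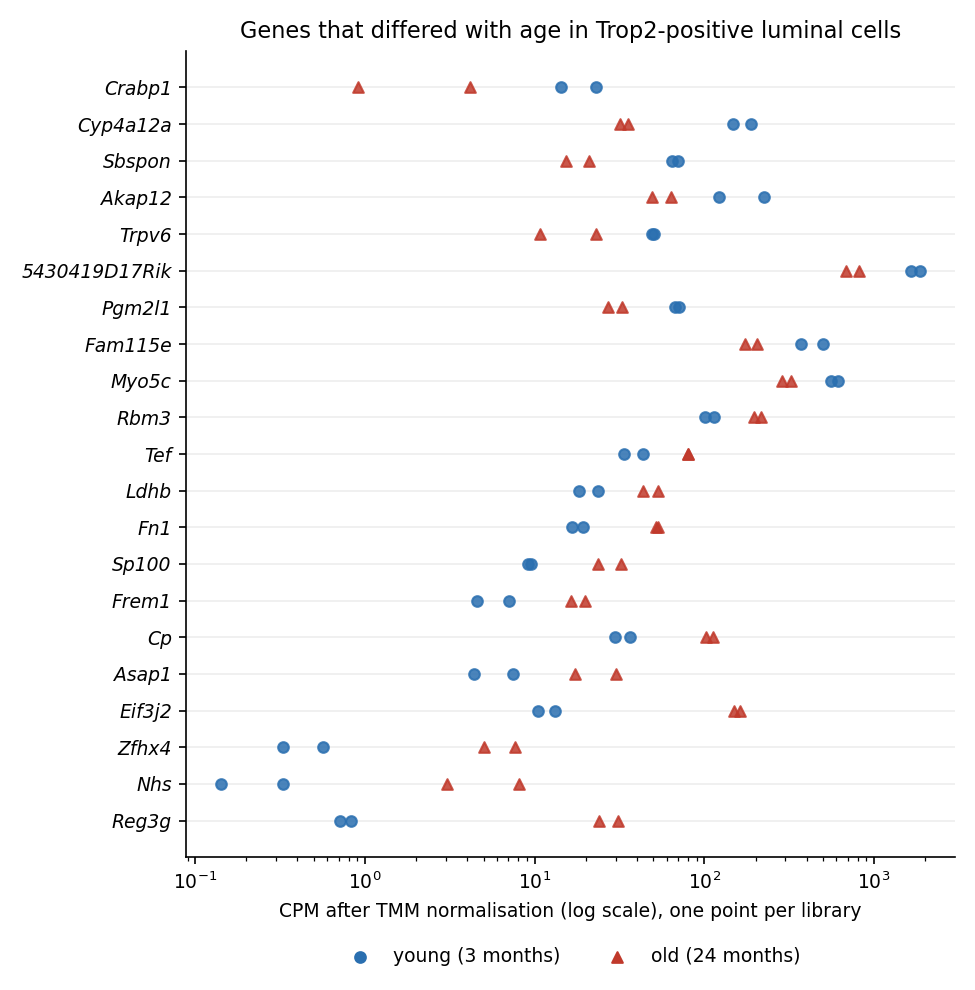
Level of 21 of the 22 called genes in each Trop2-positive library, as CPM after TMM normalisation on a log axis, with circles for young and triangles for old cells. The old and young libraries do not overlap in any of the 21 genes, and the gap is widest at Reg3g.

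The genes that rose included 2 of host defence and acute phase, which inflamed epithelia secrete. Reg3g, a secreted lectin that kills Gram-positive bacteria (chromosome 6, 78466269 to 78468872 on GRCm38), stood at 0.711 and 0.825 CPM in young and 23.8 and 30.7 CPM in old libraries. It rose by 5.12 ± 0.74 on the log2 scale (edgeR adjusted p = 0.0189). Trop2-negative cells held 0 and 0.739 CPM at 3 months and 3.34 and 1.23 CPM at 24 months. Its neighbour in the family Reg3b was at 0 in both young libraries and at 4.25 and 2.47 CPM in the old ones. The mean of the old libraries was 7.3-fold the young floor of 3 counts per library, leaving aside the spread of the old libraries. Reg3b was not called (adjusted p = 0.266). Cp, which encodes the copper-carrying ferroxidase ceruloplasmin (chromosome 3, 19957054 to 20009145), stood at 36.4 and 29.9 CPM in young and 102 and 112 CPM in old libraries. It rose by 1.69 ± 0.20 (adjusted p = 0.0053). Without old library 2, neither Reg3g nor Cp was called.

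The acute phase and complement list had 13 tested members. Of these, 5 were higher and 0 lower at unadjusted p under 0.05 (5.08% and 4.68% of all genes). Both old libraries lay above both young in 6 members, and in 20.5% of all genes. The median change was 1.33, against 0.01 over all genes. C3, the central complement component, stood at 9.24 and 6.43 CPM in young and 39.5 and 24.7 CPM in old libraries (log2 2.02 ± 0.37, adjusted p = 0.0528). Saa3, of the serum amyloid family, was at 0 in both young libraries and at 5.92 and 6.62 CPM in the old ones. Its mean in old libraries was 13.6-fold the young floor (adjusted p = 0.197). Saa1 stood at 0 and 0.165 CPM in young and 1.82 and 2.08 CPM in old libraries (adjusted p = 0.497). Some other members overlapped between the ages, among them the iron-binding Lcn2, at 278 and 149 CPM in young and 165 and 218 CPM in old cells. Stromal cells hold more of both Cp and C3, at 249 ± 8.51 and 3403 ± 962 CPM in young mice (mean ± SD, n = 3, as for stromal values below). The summed level of the 7 fibroblast markers was 56 and 57.6 CPM in young and 16.7 and 26.5 CPM in old Trop2-positive libraries. Smooth muscle markers, 7 in number, summed to 16.6 and 17 CPM in young and 21.4 and 23.5 CPM in old libraries, and the 7 endothelial markers to 2.7 and 5.44 CPM in young and 7.59 and 9.47 CPM in old. The part of stromal RNA in Cp and C3 was not tested.

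Among matrix and basement membrane genes, Fn1 and Frem1 rose and Sbspon fell. Fn1, which encodes fibronectin (chromosome 1, 71585520 to 71653200), stood at 16.5 and 19.1 CPM in young and 51.6 and 53.3 CPM in old libraries and rose by 1.56 ± 0.21 (adjusted p = 0.0158). Stromal cells held 1822 ± 294 CPM at 3 months and 1661 ± 829.9 CPM at 24 months. Frem1, an extracellular protein of the Fras1 and Frem complex of epithelial basement membranes, rose from 4.55 and 7.09 CPM to 16.3 and 19.9 CPM (1.64 ± 0.28, adjusted p = 0.0392). Its partner Fras1 stood at 22.9 and 20.6 CPM in young and 57.3 and 41.4 CPM in old cells without being called (adjusted p = 0.148). Sbspon, a secreted protein with thrombospondin and somatomedin B domains, fell from 69.7 and 64.5 CPM to 21 and 15.3 CPM (-1.89 ± 0.26, adjusted p = 0.0174).

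The 14 tested genes of the fibrillar and other collagens list had a median change of -1.08. At unadjusted p under 0.05, 3 were lower and 0 higher (4.68% and 5.08% of all genes). The number lower was 1 without old library 1 and 5 without old library 2. Col1a1, a fibrillar collagen chain and also a fibroblast marker, stood at 11.7 and 8.08 CPM in young and 1.52 and 1.82 CPM in old libraries (adjusted p = 0.0697). Stromal libraries held 4627 ± 600.2 CPM in young mice. All 6 tested fibroblast markers had negative fitted changes, 4 of them with both old libraries below both young (19.1% of all genes), and the median was -2.03. Without old library 1, 2 rather than 4 of them were lower at unadjusted p under 0.05. The part of stromal RNA in the collagen values was not tested.

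The called genes with roles in the cytoskeleton and vesicle traffic also went both ways. Myo5c, a myosin that carries secretory granules in glandular epithelia (chromosome 9, 75232020 to 75305451), stood at 611 and 554 CPM in young and 325 and 288 CPM in old libraries and fell (-0.93 ± 0.14 on the log2 scale, adjusted p = 0.0247). Akap12, a scaffold for protein kinase A, fell from 225 and 122 CPM to 63.8 and 49.2 CPM (-1.62 ± 0.27, adjusted p = 0.0423), and its call was lost in 8 of 12 alternatives. Akap12 stood at 1339 ± 199 CPM in young stroma, and the fibroblast sum given above was lower in the same old libraries. Asap1, a GTPase-activating protein for Arf, rose from 4.41 and 7.42 CPM to 17.3 and 30.1 CPM (2.01 ± 0.35, adjusted p = 0.0424). Nhs, a regulator of the actin network, stood at 0.142 and 0.33 CPM in young and 3.04 and 8.04 CPM in old cells, which rests on 3 reads in young libraries against 82 in old. The ratio was 25 with an exact 95% interval of 8.27 to 124 for counting error alone (adjusted p = 0.0415). Of the 19 genes in the actin, Arf and cargo motor list, 4 were called, 2 in each direction, against 0.162% of all genes. The list was chosen with earlier results of these data known, so its count is not independent of the calls. At unadjusted p under 0.05 in edgeR, 6 were lower and 2 higher, against 4.68% and 5.08% of all genes. The number lower was 2 without old library 2 and 3 without young library 1.

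Several called genes belong to metabolism, transport or signalling of the luminal epithelium. Cyp4a12a, a fatty acid hydroxylase that androgen induces in male mice (chromosome 4, 115299046 to 115332815), stood at 189 and 147 CPM in young and 31.6 and 35.3 CPM in old libraries. It fell (-2.33 ± 0.22 on the log2 scale, adjusted p = 0.00044). Of its transcript windows of 50 bases, 48.9% also occur in another gene. Its near copy Cyp4a12b held no counts in any luminal library. The sum of both copies therefore equals Cyp4a12a and cannot show how shared reads were divided. Of 7 tested genes of the Cyp4 family, no other was called. Trpv6, an epithelial calcium channel, fell from 50.5 and 49.3 CPM to 10.8 and 22.8 CPM (-1.56 ± 0.26, adjusted p = 0.0415). Crabp1, which binds retinoic acid in the cytosol, fell from 14.2 and 22.9 CPM to 0.911 and 4.15 CPM (-2.83 ± 0.49, adjusted p = 0.0424). Among the other 15 tested retinoid genes none was called, and the retinol receptor Stra6 stood at 23.5 and 7.59 CPM in young and 49.8 and 38.7 CPM in old cells (adjusted p = 0.238).

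Ldhb, the lactate dehydrogenase subunit of oxidative tissues, rose from 18.3 and 23.6 CPM to 43.6 and 52.9 CPM (1.21 ± 0.18, adjusted p = 0.0221). Pgm2l1, which makes glucose 1,6-bisphosphate, fell from 66.8 and 70.9 CPM to 32.5 and 27 CPM (-1.21 ± 0.20, adjusted p = 0.0375). Over the 21 genes of glycolysis and lactate metabolism the median change was 0.01. Fam115e, named Tcaf3 in GENCODE, fell from 369 and 502 CPM to 203 and 174 CPM (-1.21 ± 0.19, adjusted p = 0.0375). The gene model 5430419D17Rik fell from 1859 and 1648 CPM to 812 and 686 CPM (-1.23 ± 0.21, adjusted p = 0.0424). Both belong to the more abundant called genes, and in each the old libraries lay below the young ones without overlap.

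Among regulators of RNA and transcription, Rbm3, an RNA-binding protein induced by cold, rose. It stood at 114 and 101 CPM in young and 216 and 197 CPM in old libraries (0.95 ± 0.14, adjusted p = 0.0221). Sp100, a component of nuclear bodies that interferon induces, rose from 9.1 and 9.57 CPM to 32.4 and 23.7 CPM (1.58 ± 0.28, adjusted p = 0.043). Zfhx4, a zinc finger and homeobox transcription factor, rose from 0.569 and 0.33 CPM to 5.01 and 7.65 CPM (3.75 ± 0.56, adjusted p = 0.0218), and its stromal level was 115 ± 4.32 CPM in young mice. Sp100 was the called member of 30 tested interferon genes, whose median was 0.20, and 0.162% of all genes were called. At unadjusted p under 0.05, 2 interferon genes were higher and 0 lower, against 5.08% and 4.68% of all genes. Without young library 1, 11 interferon genes were higher, and without young library 2 the median was -0.07.

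Eif3j2, a copy of the gene for subunit J of the translation factor eIF3, had the smallest adjusted p (9.81e-07). It stood at 13.2 and 10.4 CPM in young and 163 and 149.8 CPM in old libraries (3.72 ± 0.20). Its near copy Eif3j1 went the other way, at 130 and 157 CPM in young and 0.304 and 2.47 CPM in old cells (adjusted p = 0.152). The sum of both was 143 and 167 CPM in young and 163 and 152 CPM in old libraries and overlapped between the ages. Windows of 50 bases shared with another gene made up 91.8% of Eif3j2, so how reads were divided between the copies is uncertain. Eif3j1, Cp, Fn1, Sbspon, Rbm3 and Tef, and among genes named further on Nrap, Acp5, Antxr1, Ccdc3, Arnt2, Ugt1a7c, Bex1, Nrn1 and Rmnd1, overlap exons of another gene on the opposite strand, and with the strand setting unknown, reads of such pairs cannot be told apart.

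Tef, which rose, belongs to the circadian clock. In the mammalian clock, Clock or Npas2 pairs with Bmal1, the product of Arntl, at E-box elements (CACGTG) and drives Per, Cry, Nr1d and the PAR bZIP factors Dbp, Tef and Hlf, which act at D-box elements (TTATGTAA). Promoters of 3 members are shown because they hold an E-box or D-box and because their genes were higher in both old libraries. Per1 meets the same rule and is not shown; it stood at 101 and 105 CPM in young and 116 and 114 CPM in old libraries. The windows run from 250 bases before to 50 after the start site on the gene's own strand, from RefSeq on GRCm38.p6, with the element in capitals: chr15:81802423-81802722 on the plus strand for Tef (the more upstream of 2 starts), and chr6:145865371-145865670 and chr4:151044616-151044915 on the minus strand for Bhlhe41 and Per3.

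Tef: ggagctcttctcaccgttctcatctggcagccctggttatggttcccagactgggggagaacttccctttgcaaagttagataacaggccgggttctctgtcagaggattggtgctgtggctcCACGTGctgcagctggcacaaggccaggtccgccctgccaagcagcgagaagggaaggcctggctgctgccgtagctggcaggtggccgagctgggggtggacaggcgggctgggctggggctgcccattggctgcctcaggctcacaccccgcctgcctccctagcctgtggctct

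Bhlhe41: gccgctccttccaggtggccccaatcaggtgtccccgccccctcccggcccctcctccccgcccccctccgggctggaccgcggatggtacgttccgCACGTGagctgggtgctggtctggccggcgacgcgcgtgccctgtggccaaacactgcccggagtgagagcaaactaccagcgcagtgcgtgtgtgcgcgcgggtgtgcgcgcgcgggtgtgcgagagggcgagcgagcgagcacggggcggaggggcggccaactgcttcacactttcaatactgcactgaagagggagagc

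Per3: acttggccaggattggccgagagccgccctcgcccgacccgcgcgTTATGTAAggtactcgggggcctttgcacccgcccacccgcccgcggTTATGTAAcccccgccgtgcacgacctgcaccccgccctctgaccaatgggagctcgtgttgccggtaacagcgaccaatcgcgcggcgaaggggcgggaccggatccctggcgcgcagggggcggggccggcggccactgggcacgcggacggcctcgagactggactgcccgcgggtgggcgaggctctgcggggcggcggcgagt

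The E-box begins 127 bases before the start in Tef and 153 before it in Bhlhe41, and Per3 has D-boxes at 205 and 158 bases before. On either strand, 5 of 17 promoters of tested clock genes matched by symbol held the E-box, and 1 of 17 held the D-box. The shares over 10183 promoters of tested genes were 10.2% and 0.52%. Over all 27025 promoters they were 7.24% and 0.958%. These letters are matches, not measured binding sites.

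Tef, a PAR bZIP activator, was called among 21 tested clock genes. It stood at 43.4 and 33.7 CPM in young and 80.2 and 79.7 CPM in old libraries (1.05 ± 0.18, adjusted p = 0.0375), and the call was lost when either old library was left out. Its relative Dbp stood at 8.96 and 5.61 CPM in young and 33.1 and 22.7 CPM in old libraries (1.93 ± 0.36, adjusted p = 0.0528). Bhlhe41, a repressor at E-boxes, stood at 11.8 and 8.58 CPM in young and 33.3 and 24.1 CPM in old libraries (1.49 ± 0.30, adjusted p = 0.0697). The values of Per3, a negative arm member, were 22.2 and 15.8 CPM in young and 38 and 31.1 CPM in old cells (adjusted p = 0.259). Per2 stood at 134 and 97 CPM in young and 149 and 156 CPM in old libraries and the repressor Nr1d2 at 72.1 and 72.8 CPM in young and 101 and 94.3 CPM in old libraries, with old libraries above young in each.

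The activators lay on the other side. Arntl stood at 31.7 and 26.4 CPM in young and 10.8 and 13.9 CPM in old libraries (-1.23 ± 0.27, adjusted p = 0.0948). Npas2 stood at 32.3 and 29.7 CPM in young and 9.57 and 5.97 CPM in old (adjusted p = 0.0881). Clock itself stood at 109 and 86.6 CPM in young and 65 and 67.9 CPM in old libraries, without overlap. Nr1d1, which represses Arntl, overlapped, at 148 and 82.7 CPM in young and 143 and 93.2 CPM in old cells.

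In all, 11 of 21 clock genes had both old libraries above both young (20.5% of all genes) and 5 had them below (19.1%). At unadjusted p under 0.05, 7 were higher and 3 lower, and without old library 1 the first number was 3. Over all genes 5.08% were higher and 4.68% lower at unadjusted p under 0.05. The median of the clock genes was 0.15. For 16 of the 21 the Trop2-negative libraries were apart in the same direction, against 30.6% of all genes. Stromal libraries were apart by age as well, with Dbp at 21 ± 14.9 CPM in young and 109.7 ± 28.8 CPM in old mice. Stromal Arntl stood at 56.5 ± 9.02 CPM in young and 16.9 ± 4.24 CPM in old mice. The labels give no hour of collection, so collection time and age cannot be told apart.

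**Figure D2:**
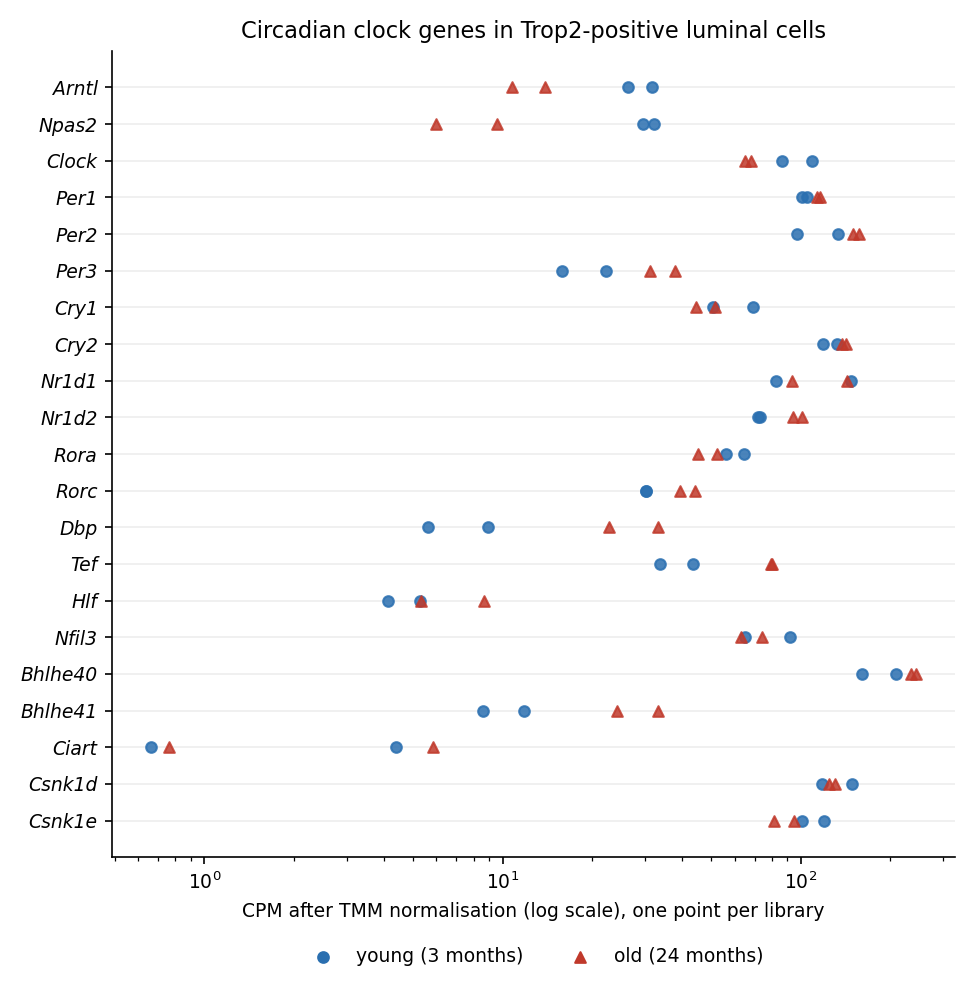
Level of the 21 tested clock genes in each Trop2-positive library, as CPM after TMM normalisation on a log axis, with circles for young and triangles for old cells. Tef, Dbp, Bhlhe41 and Per3 are higher and Arntl, Npas2 and Clock lower in both old libraries than in both young.

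The unfolded protein response list holds chaperones and folding enzymes of the endoplasmic reticulum together with transcription factors such as Atf4 and Xbp1 and degradation genes such as Sel1l and Herpud1. Of its 20 tested genes 16 had both old libraries below both young, though none was called. Chaperone genes answer this response in part through the ER stress response element, which ATF6 and NF-Y recognise. Promoters are shown for 3 of the 8 members found to hold this element, in capitals on whichever strand it was found. The windows are drawn as above, at chr12:17266339-17266638 and chr14:118937682-118937981 on the plus strand and chr10:86705395-86705694 on the minus strand.

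Pdia6: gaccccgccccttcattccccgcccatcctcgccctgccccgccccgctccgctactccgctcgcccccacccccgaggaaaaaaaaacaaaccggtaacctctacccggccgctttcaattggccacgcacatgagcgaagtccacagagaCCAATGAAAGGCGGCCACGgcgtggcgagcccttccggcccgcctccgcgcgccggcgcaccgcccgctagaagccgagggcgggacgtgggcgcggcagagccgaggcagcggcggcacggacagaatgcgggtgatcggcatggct

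Dnajc3: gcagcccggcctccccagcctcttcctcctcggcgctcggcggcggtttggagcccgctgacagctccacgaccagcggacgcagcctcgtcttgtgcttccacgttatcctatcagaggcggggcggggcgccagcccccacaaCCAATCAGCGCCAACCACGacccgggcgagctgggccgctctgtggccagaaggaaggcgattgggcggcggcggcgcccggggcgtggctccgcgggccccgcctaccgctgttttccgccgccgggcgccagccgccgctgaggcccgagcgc

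Hsp90b1: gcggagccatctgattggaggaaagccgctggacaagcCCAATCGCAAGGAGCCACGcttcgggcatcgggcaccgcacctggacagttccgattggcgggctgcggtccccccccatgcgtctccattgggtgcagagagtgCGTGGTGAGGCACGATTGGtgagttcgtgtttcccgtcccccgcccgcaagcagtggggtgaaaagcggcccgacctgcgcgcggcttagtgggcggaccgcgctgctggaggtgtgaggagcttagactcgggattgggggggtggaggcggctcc

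The element begins 98 bases before the start in Pdia6, 105 in Dnajc3, and 212 and 107 in Hsp90b1. It was found on either strand in 8 of 18 promoters of this list, in 0.167% of promoters of tested genes and in 0.13% of all promoters. The motif was added to the search after the values had been seen.

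Pdia6, a protein disulfide isomerase, stood at 468 and 595 CPM in young and 320.3 and 305 CPM in old libraries (-0.77 ± 0.15, adjusted p = 0.0697). The co-chaperone Dnajc3 stood at 322 and 408 CPM in young and 223 and 226 CPM in old (-0.70 ± 0.15, adjusted p = 0.0843). Hsp90b1, an abundant chaperone of this compartment, stood at 1744 and 2188 CPM in young and 1189.9 and 1477 CPM in old libraries (adjusted p = 0.217).

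The share of all genes with both old libraries below both young was 19.1%. At unadjusted p under 0.05, 13 of the 20 were lower and 1 was higher (4.68% and 5.08% of all genes), and the median was -0.45. The number lower was 3 without old library 1 and 3 without young library 2. Trop2-negative libraries were apart in the direction of the Trop2-positive change for 19 of the 20, against 30.6% of all genes. Stromal Pdia6 stood at 199 ± 35.9 CPM in young and 91.4 ± 15.7 CPM in old mice.

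The secretory luminal genes held no called member, and young library 2 stood above young library 1 in the 4 described here. Sbp, the spermine-binding protein of the prostate, stood at 12156 and 29719 CPM in young and 1237 and 4206 CPM in old libraries (-2.94 ± 0.69, adjusted p = 0.261). Spink3, a serine protease inhibitor of prostatic fluid, stood at 611 and 1177 CPM in young and 192 and 283 CPM in old libraries (adjusted p = 0.123). The glycosyltransferase Abo stood at 132 and 157 CPM in young and 59.1 and 89.1 CPM in old libraries (adjusted p = 0.069). Mmp7, a matrix metalloproteinase, stood at 120.4 and 142 CPM in young and 635 and 388 CPM in old cells (adjusted p = 0.0997). Of 11 tested members 6 had both old libraries below both young (19.1% of all genes), and the median was -0.73, or -0.26 without young library 2. Young Trop2-negative libraries held 72151 and 76781 CPM of Sbp, and the part of Trop2-negative cells or of free secretory RNA in these values was not tested.

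In antigen presentation no gene was called. Cd74, the invariant chain of MHC class II, stood at 9.67 and 4.95 CPM in young and 34.3 and 23.6 CPM in old libraries (1.98 ± 0.39, adjusted p = 0.0697). The class II gene H2-Aa was at 0 in both young libraries and at 7.44 and 1.3 CPM in the old ones. Its mean in old libraries was 9.5-fold the young floor, with a wide spread between the old libraries (adjusted p = 0.249). The 14 tested members had a median of 0.39. Of these, 6 were higher and 0 lower at unadjusted p under 0.05 (5.08% and 4.68% of all genes). That number was 2 without old library 1 and 3 without young library 2. The leukocyte gene Ptprc was at 0.142 and 0 CPM in young and 0.152 and 0 CPM in old libraries. The summed level of 6 leukocyte markers, most of it Cd52, was 136 and 89.9 CPM in young and 39.6 and 58.5 CPM in old. For the 9 macrophage and dendritic markers it was 21.2 and 27.4 CPM in young and 11.2 and 12.7 CPM in old. The part of immune cells in the class II values was not tested.

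Targets of JAK and STAT3 signalling and glutathione genes had more members higher than lower. Socs3, a feedback inhibitor of cytokine receptors, stood at 43.9 and 37.9 CPM in young and 79.6 and 67.6 CPM in old libraries (0.84 ± 0.17, adjusted p = 0.0697). Pim1, which encodes a kinase, stood at 29.4 and 19 CPM in young and 72.9 and 47.5 CPM in old (adjusted p = 0.0751). Of 13 JAK and STAT3 targets, 5 were higher and 1 lower at unadjusted p under 0.05 (5.08% and 4.68% of all genes). The median of these targets was 0.21. Without the 3 libraries with high Svs1, 3 were higher.

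Gclc, the catalytic subunit of the first enzyme of glutathione synthesis, stood at 42.5 and 49.3 CPM in young and 66.4 and 90.3 CPM in old libraries (0.77 ± 0.17, adjusted p = 0.0985). The glutathione transferase Gstp1 stood at 31.4 and 36.8 CPM in young and 48.9 and 65.4 CPM in old libraries (adjusted p = 0.132), and the peroxidase Gpx3 lay the other way, at 132 and 170.4 CPM in young and 81.4 and 89.1 CPM in old libraries. Of 19 glutathione and xenobiotic genes, 9 were higher and 1 lower at unadjusted p under 0.05 (5.08% and 4.68% of all genes). None of the 19 was called, and the median was 0.28. Without the 3 libraries with high Svs1, 5 were higher. The age change differed between the luminal sorts at unadjusted p under 0.05 for 9 of them (6.99% of all genes), with a median of 0.84 in Trop2-negative cells.

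Immediate early genes, which stress and cell handling induce within minutes, had 5 of 19 members higher and 0 lower at unadjusted p under 0.05. Over all genes 5.08% were higher and 4.68% lower at that threshold. Fos stood at 361 and 429.8 CPM in young and 926 and 546 CPM in old libraries (adjusted p = 0.175), and old library 1 was the highest. Fosb stood at 1234 and 1336 CPM in young and 2317 and 1814 CPM in old libraries (adjusted p = 0.142). Without old library 1 the number higher was 2. Time from tissue to lysis is not given in the sources used here, and its part in these values was not tested.

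**Figure D3:**
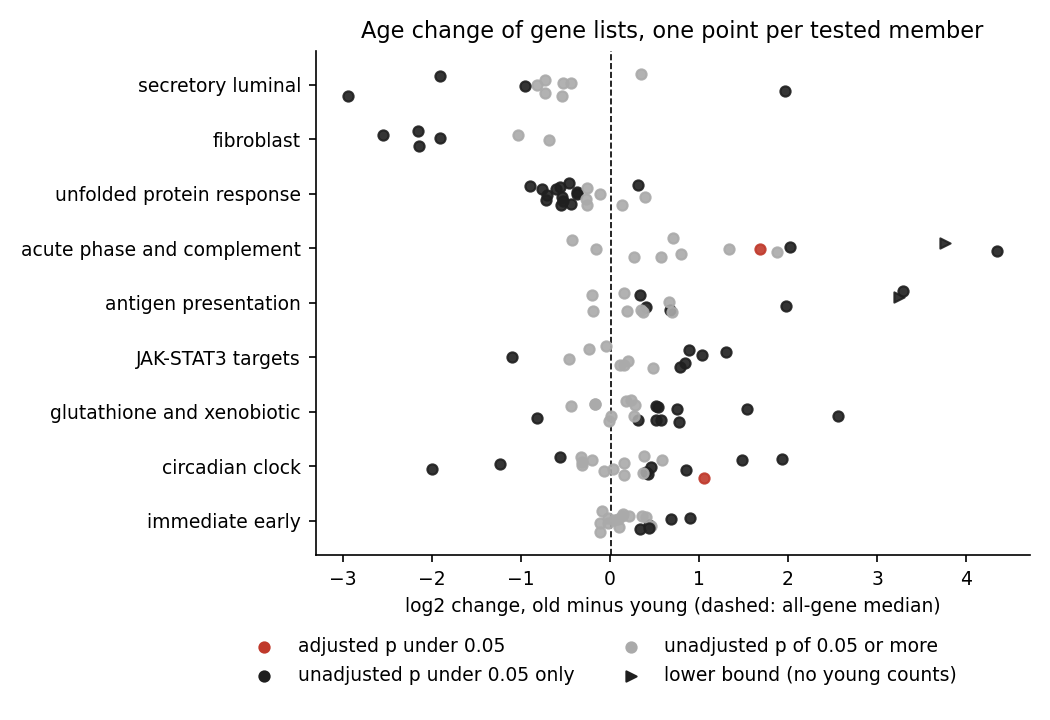
The log2 change with age (old minus young Trop2-positive cells) of each plotted member of 9 gene lists, with 1 point per gene and a dashed line at the median of all genes. For the acute phase and complement list 12 of 13 tested members are drawn. Triangles are lower bounds for genes at 0 in both young libraries, and the unfolded protein response points lie mostly left of the line.

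Lists of core luminal functions held no called gene. The 9 luminal markers had a median change of -0.10, the 15 keratins -0.08 and the 34 ribosomal protein genes 0.11, with 0 genes of the 3 lists at unadjusted p under 0.05 in either direction by edgeR. Without old library 2 or young library 1 the keratin median was 0.16 or 0.15, and without old library 2 the luminal median was 0.003, so neither sign is settled here. The androgen response list had 5 of 22 genes lower and 2 higher at that threshold, and the number lower was 2 without old library 1, 1 without old library 2 and 0 without young library 2. Over all genes 4.68% were lower and 5.08% higher at unadjusted p under 0.05. Ndrg1, which androgen and stress induce, stood at 33.8 and 43.1 CPM in young and 77.2 and 89.5 CPM in old libraries (1.12 ± 0.22, adjusted p = 0.069). The neutral endopeptidase Mme lay the other way, at 448 and 652 CPM in young and 386 and 368 CPM in old libraries (adjusted p = 0.359).

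Some genes had large fitted changes without being called. Among those with unadjusted p under 0.01, a mean of 10 CPM or more at 1 age and libraries that did not overlap, the largest increase was that of Msln, which encodes mesothelin, at 0.284 and 0.99 CPM in young and 32.7 and 13.1 CPM in old libraries (adjusted p = 0.236). Edn3, an endothelin ligand, stood at 0.711 and 3.96 CPM in young and 12.9 and 15 CPM in old libraries (2.62 ± 0.49, adjusted p = 0.0697). Nrap, an actin-associated muscle protein, stood at 1.28 and 2.64 CPM in young and 15.6 and 13.4 CPM in old libraries (adjusted p = 0.0697). Antxr1, Ccdc3, Smoc2, Akr1b8 and Arnt2 were the other increases, with adjusted p from 0.0824 to 0.241.

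On the lower side, Igsf11, an adhesion molecule of the immunoglobulin family, stood at 88.7 and 47.7 CPM in young and 12.2 and 16.2 CPM in old libraries (adjusted p = 0.129). Acp5, the tartrate-resistant acid phosphatase, stood at 17.6 and 8.41 CPM in young and 2.89 and 2.85 CPM in old libraries (adjusted p = 0.276). Apod and Ugt1a7c completed the decreases beside genes already given, and 53.7% of the windows of Ugt1a7c occur in another gene.

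The same libraries were set beside the Trop2-negative sort to see where the age change differed. For 18 of the 22 called genes (81.8%) the Trop2-negative libraries were apart by age in the same direction, against 30.6% of all genes. The stromal libraries were apart in the same direction for 8 of 22 (36.4%), against 14.7%. Of the 22, 3 were also called in the interaction, the test of the difference between both age changes, in which edgeR called 7 genes (0.0515%) and 951 (6.99%) had unadjusted p under 0.05. With 1 Trop2-positive library left out the 7 became 2 (old library 1), 3 (old library 2) or 81 (young library 2), and 35 (old library 2) or 2 (young library 2) with 1 Trop2-negative library left out.

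**Figure D4:**
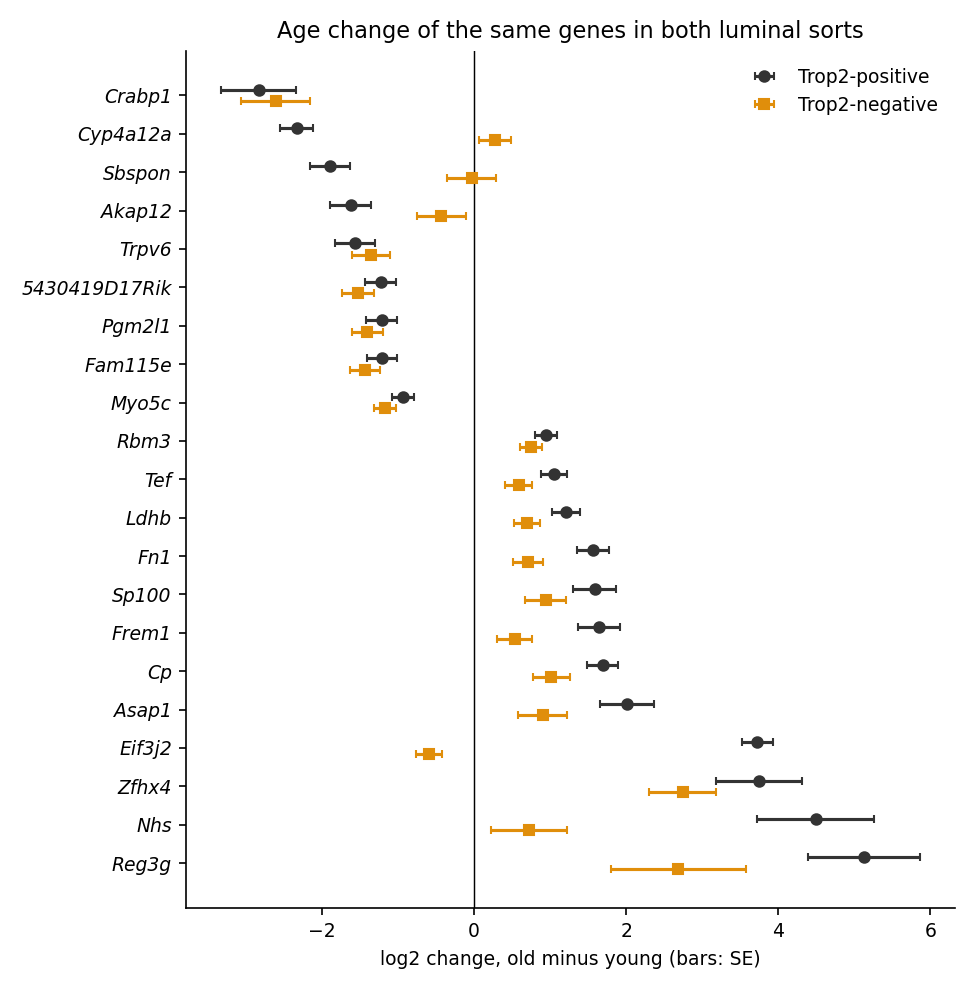
The log2 change with age (old minus young) of 21 called genes in Trop2-positive cells (circles) and Trop2-negative cells (squares), with bars of 1 SE. Cyp4a12a and Eif3j2 lie on opposite sides of 0 in the sorts, Sbspon is near 0 in Trop2-negative cells, and most other genes lie on the same side in both.

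Cyp4a12a was lower in old Trop2-positive cells, whereas Trop2-negative cells held 49.7 and 78.7 CPM at 3 months and 82.4 and 73 CPM at 24 months. The difference of the changes was -2.61 ± 0.30 (adjusted p = 0.00507). For Eif3j2 the Trop2-negative libraries held 201 and 193 CPM at 3 months and 109 and 154 CPM at 24 months. The difference was 4.31 ± 0.27 (adjusted p = 4.5e-06), with the same doubt about its copy. Summed with Eif3j1, Trop2-negative libraries held 203 and 197 CPM at 3 months and 134 and 158 CPM at 24 months. Trop2-positive libraries held a sum of 143 and 167 CPM at 3 months and 163 and 152 CPM at 24 months. The difference was not tested on the sums.

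The other named genes of the interaction were not called in Trop2-positive cells. Bex1, a small adaptor protein of the BEX family, stood at 74.1 and 67.6 CPM in young and 57.4 and 47.5 CPM in old Trop2-positive libraries and at 6.09 and 7.95 CPM in young and 22.5 and 32.2 CPM in old in Trop2-negative ones (-2.40 ± 0.35, adjusted p = 0.0235). Nrn1, which encodes neuritin, stood at 9.95 and 10.4 CPM in young and 7.59 and 6.1 CPM in old libraries against 0.156 and 0.37 CPM in young and 12.6 and 8.28 CPM in old (-5.83 ± 0.83, adjusted p = 0.0235). Col7a1, the collagen of anchoring fibrils, stood at 30.6 and 34.8 CPM in young and 21.7 and 25.2 CPM in old libraries against 123 and 132 CPM in young and 243 and 240.4 CPM in old (-1.40 ± 0.22, adjusted p = 0.0397). Rmnd1, a mitochondrial translation factor, stood at 14.2 and 14.2 CPM in young and 9.42 and 8.43 CPM in old libraries against 11.2 and 9.61 CPM in young and 0 in both old Trop2-negative libraries (adjusted p = 0.0177). These 4 calls were each lost without old Trop2-positive library 1 and without either young Trop2-negative library. They were also lost without old Trop2-positive library 2 except for Rmnd1, and without old Trop2-negative library 1 except for Bex1.

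**Figure D5:**
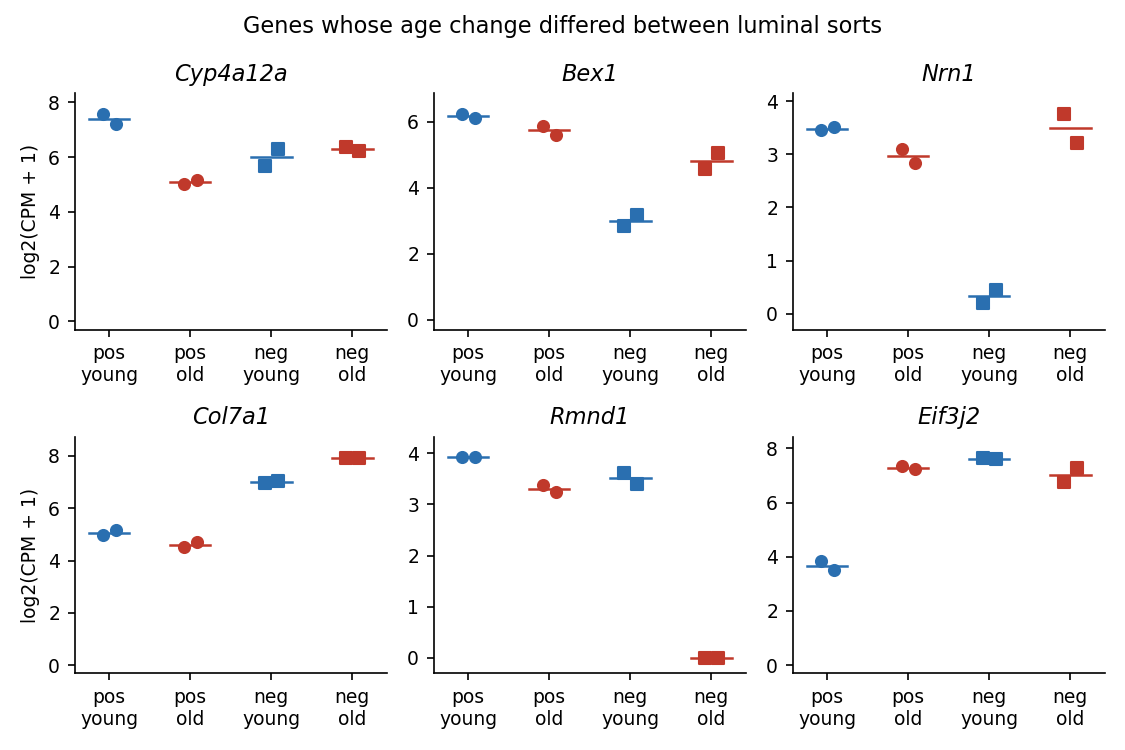
Level of 6 genes called in the interaction in each luminal library as log2(CPM + 1), for Trop2-positive (circles) and Trop2-negative cells (squares), with a line at the mean. Bex1, Nrn1 and Col7a1 are higher in old than in young Trop2-negative cells and lower in old than in young Trop2-positive cells.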

How the data were processed

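Messenger RNA was sequenced from sorted prostate cells, with 2 libraries per age for each luminal sort and 3 for stroma. Per the labels, libraries were made with a stranded mRNA kit, and the submitters' processing notes name bcl2fastq 2.17, Bowtie2 2.1.0, RSEM 1.2.15 and the mouse build GRCm38. The authors deposited tables of 24054 genes with 2 measures, an expected count from RSEM, in which reads that fit several genes are divided among them, and a TPM value scaled for transcript length. The strand setting of the counting is not given in the sources used here.

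After rounding to whole numbers, the expected counts of the 8 luminal libraries entered one model in edgeR 4.0.16 (R 4.3.3), with filterByExpr, TMM factors, robust quasi-likelihood and one mean per group. Adjusted p is Benjamini-Hochberg over all 13598 genes tested, two-sided, and a gene was called under 0.05. Log2 changes are given ± SE, and levels as CPM. Replicates differed by more than sampling noise. A permutation of 2 against 2 libraries cannot go below p = 0.333, so single genes were tested in that fit alone. Alternatives were DESeq2 1.42.0, limma 3.58.1 on log2(TPM + 1) or log2(TPM + 0.1), RLE factors and no filter on low counts. Others were the 4 Trop2-positive libraries alone, a replicate block and leaving out single libraries. For the age change each Trop2-positive library was left out in turn, and for the interaction each luminal library. Leaving out the 3 libraries with high Svs1 was chosen after seeing the data. The fit was tested on simulated data, where it missed part of the changes put in and made some false calls.

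The members and the 47 gene lists (697 symbols, of which 4 were not matched) were chosen with earlier results of these data known. Named genes were every called gene, list members with the smallest p (up to 4 per list beside called ones), the 8 largest increases and decreases not called at unadjusted p under 0.01, up to 8 genes of the interaction, the members of 5 short lists, and cell type markers. Of the 22 called genes 1, and some marker genes, are counted but not reported here. Positions are from GENCODE M21 and promoters from RefSeq. Of 7 motifs searched on both strands (E-box, D-box, STAT TTCNNNGAA, NF-kB, C/EBP TTNNGNAA, ARE TGACNNNGC and the ER stress response element), the last 2 were added after seeing the results.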

Additional observations from a re-analysis of the deposited data

Results flagged for a closer look

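The age change differed between Trop2-positive and Trop2-negative luminal cells, by the interaction term of edgeR's quasi-likelihood test at an adjusted p under 0.05, in the genes that follow. The difference (Trop2-positive change minus Trop2-negative change, log2) was 4.31 for Eif3j2, a gene with a near copy that shares most of its sequence. The sum of both copies overlapped between the ages in Trop2-positive libraries. In Trop2-negative libraries the sum was 203 and 197 CPM in young and 134 and 158 CPM in old. The difference was not tested on the sums. For Cyp4a12a the difference was -2.61, and its lower level in old Trop2-positive cells had no counterpart in Trop2-negative libraries. For Bex1 it was -2.40, for Nrn1 -5.83 and for Col7a1 -1.40. These 3 genes were higher in both old than in both young Trop2-negative libraries and lower in both old Trop2-positive libraries. For Rmnd1 it was 8.46, a fitted value that depends on the prior count because both old Trop2-negative libraries had no count of the gene. No luminal group has enough libraries for a test of single outlying samples.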

How the results depend on the processing

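The count of 22 genes called between old and young Trop2-positive cells was 158 with DESeq2 (90 higher, 68 lower), 3 on log2(TPM + 0.1) in limma, 379 with no filter on low counts (228 higher, 151 lower) and 10 with the 4 Trop2-positive libraries alone. Leaving out 1 library gave 10 to 241 calls. RLE factors gave 21 calls and log2(TPM + 1) gave 24. Similar totals did not mean the same genes. Of the 22 genes, 21 stayed called with RLE factors and 11 on log2(TPM + 1). With the 4 Trop2-positive libraries alone 7 stayed called, and on log2(TPM + 0.1) 2 did. The share of calls that were higher, 59.1% with all libraries, was 79.2% on log2(TPM + 1), 92.9% without old library 1, 30.0% without old library 2 and 72.2% without young library 2. All 22 genes kept their direction under each alternative, which non-overlapping libraries made likely for the named genes. The count of 7 genes called in the interaction was 68 with DESeq2, 168 with no filter and 15 without the libraries with high Svs1, and 2 to 81 with 1 library left out. TPM scaling moved the median of all genes in the interaction by -0.27 with a pseudocount of 0.1 and -0.26 with 1. The causes were not tested.

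With the replicate number as a block, 33 genes were called by age (21 of the 22 among them; Sp100 was lost) and 7 in the interaction. Same-numbered libraries correlated between -0.149 and 0.0577 in their deviations, so the numbers were not taken to pair libraries.

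Log2 changes were followed across alternatives for genes named with unadjusted p under 0.05. That limit was set after sign changes had been seen among 71 other named genes, none of them called. In these, 60 of 848 values changed sign, in 30 genes, and such genes are given as levels only. Depth limits genes near the floor, between 0.414 and 0.492 CPM for 3 counts in a Trop2-positive library.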

Other observations

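Cell cycle genes had 5 of 18 tested members with both old libraries below both young in Trop2-positive cells and 14 of 18 in Trop2-negative cells (19.1% and 22.3% of all genes), and none was called in Trop2-positive cells. Top2a, the topoisomerase of dividing cells, stood at 22.5 and 20.6 CPM in young and 8.66 and 5.71 CPM in old Trop2-positive libraries (-1.59 ± 0.37, edgeR adjusted p = 0.12). It stood at 25.3 and 34.6 CPM in young and 2.06 and 3.99 CPM in old Trop2-negative libraries. Pcna, the sliding clamp of DNA replication, lay the other way in Trop2-positive cells, at 27.9 and 38.3 CPM in young and 42.4 and 51.5 CPM in old libraries (adjusted p = 0.49). Cdkn2a has several products, among them the arrest protein p16, and gene counts do not separate them. Cdkn2a was at 0 in both young libraries and at 0.608 and 1.17 CPM in the old ones. Its mean in old libraries was 1.93-fold the young floor, leaving aside the spread of the old libraries (adjusted p = 0.465).

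In the Wnt and Notch list 3 of 22 genes were higher and 0 lower at unadjusted p under 0.05, and without old library 2 the number higher was 1. Over all genes 5.08% were higher and 4.68% lower at unadjusted p under 0.05. Axin2, a feedback target of Wnt, stood at 15.8 and 28.5 CPM in young and 38 and 48.9 CPM in old libraries (0.98 ± 0.28, adjusted p = 0.217). The Notch ligand Jag1 stood at 7.39 and 7.26 CPM in young and 13.2 and 17.9 CPM in old libraries (adjusted p = 0.251). Among growth factor receptors, Fgfr2 stood at 174 and 142 CPM in young and 116 and 106 CPM in old Trop2-positive libraries and at 66.5 and 73.2 CPM in young and 119 and 101 CPM in old libraries of Trop2-negative cells, with an adjusted p of 0.0821 for the difference of the changes. Chga, a neuroendocrine marker, stood at 5.55 and 6.6 CPM in young and 0 and 0.389 CPM in old Trop2-positive libraries, from 79 and 3 counts. The ratio of young to old was 28.8 with an exact 95% interval of 9.49 to 142 for counting error alone (adjusted p = 0.113).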
